A study of Mus musculus with 6 samples.

Results

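The unfolded protein response and the folding machinery of the secretory pathway were examined through 38 genes in bone cells of control and dexamethasone-treated mice. The genes were chosen by name for their known roles, with earlier results of these data known. All 38 were found among the 29616 genes of the deposited table. Each of the 38 passed the filter on low values, which required an average of 10 normalized counts across the 6 libraries and left 17442 genes in all. The 3 control and 3 dexamethasone libraries came from C57BL/6 mice, and the study describes wild type animals that were 8 weeks old when daily dexamethasone at 0.08 µg/g began, for 4 weeks. Dexamethasone is a synthetic glucocorticoid, and the study states that Osteocalcin-positive cells were isolated from bones freed of marrow, whereas the labels say only bone cells. Neither the labels nor the methods say whether a library was made from 1 mouse or from pooled mice, so the p-values measure the spread between these libraries, and what the controls received is not given for the sequencing. The study asked how lasting glucocorticoid treatment changes cells of the osteoblast lineage, and the values below describe the folding machinery in that comparison.

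Secreted proteins enter the endoplasmic reticulum (ER) through the Sec61 channel, fold with the help of chaperones and disulfide isomerases, and leave in vesicles coated by COPII. Proteins that fail to fold are returned to the cytosol and destroyed, a process called ER-associated degradation. When unfolded proteins build up, the membrane sensors Atf6, IRE1 (Ern1) and PERK (Eif2ak3) start the unfolded protein response, which raises chaperones and degradation factors and slows translation. Osteoblasts secrete collagen I in bulk and are known to rely on this machinery, and Creb3l1, an ER membrane transcription factor related to Atf6, is known to be needed for normal bone formation.

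With dexamethasone, 12 of the 38 genes rose and 22 fell at an adjusted p-value under 0.05 (limma, Benjamini-Hochberg), and Hsp90b1, Dnajc3, Derl2 and Derl3 did not pass. Among all genes tested, 37.2% rose and 35.2% fell by the same rule, against 31.6% and 57.9% of the 38. The changes were small. The log2 fold changes ran from -1.22 for Creb3l1 to 0.90 for Atf6, with a median of -0.15, where the median was 0.00071 over all genes tested and 0.09 over the 8739 genes averaging 1000 normalized counts or more. A difference of under 0.5 on the log2 scale was found for 31 of the 38 genes (81.6%), for 54.0% of all genes tested and for 63.8% of those averaging 1000 or more. Only Creb3l1 also changed by 1 or more on the log2 scale, the study's cut-off for differential expression, so that 0 genes were called higher and 1 was called lower. By that rule 11.7% of all genes tested were called higher and 10.6% lower, and 15.5% of the genes averaging 1000 or more were called in either direction. Since all RNA of a library is measured together, fewer cells of a type and less RNA per cell cannot be told apart.

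The spread between libraries of a group was small. Apart from Derl3, the coefficient of variation within a group was between 0.11% and 6.26%, with a median of 2.28%. Whether the libraries came from separate mice is not given, so this may not be the spread between mice. The 3 control values and the 3 dexamethasone values did not overlap for 35 of the 38 genes (92.1%), compared with 74.7% of all genes tested and 86% of those averaging 1000 or more. Normalized totals were 1.08-fold higher in the dexamethasone libraries, and rescaling all libraries to the same total moved the median of all genes tested to -0.11. The direction was kept by 34 of the 38 genes at the same total and by 32 after quantile normalization. At an adjusted p under 0.05 the split was 9 higher and 24 lower at the same total, and 8 higher and 28 lower after quantile normalization. In the GENCODE M21 annotation, genes on the opposite strand cover 8.05%, 8.16% and 8.85% of the exon bases of Eif2ak3, Sec61a1 and Manf.

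**Figure D1:**
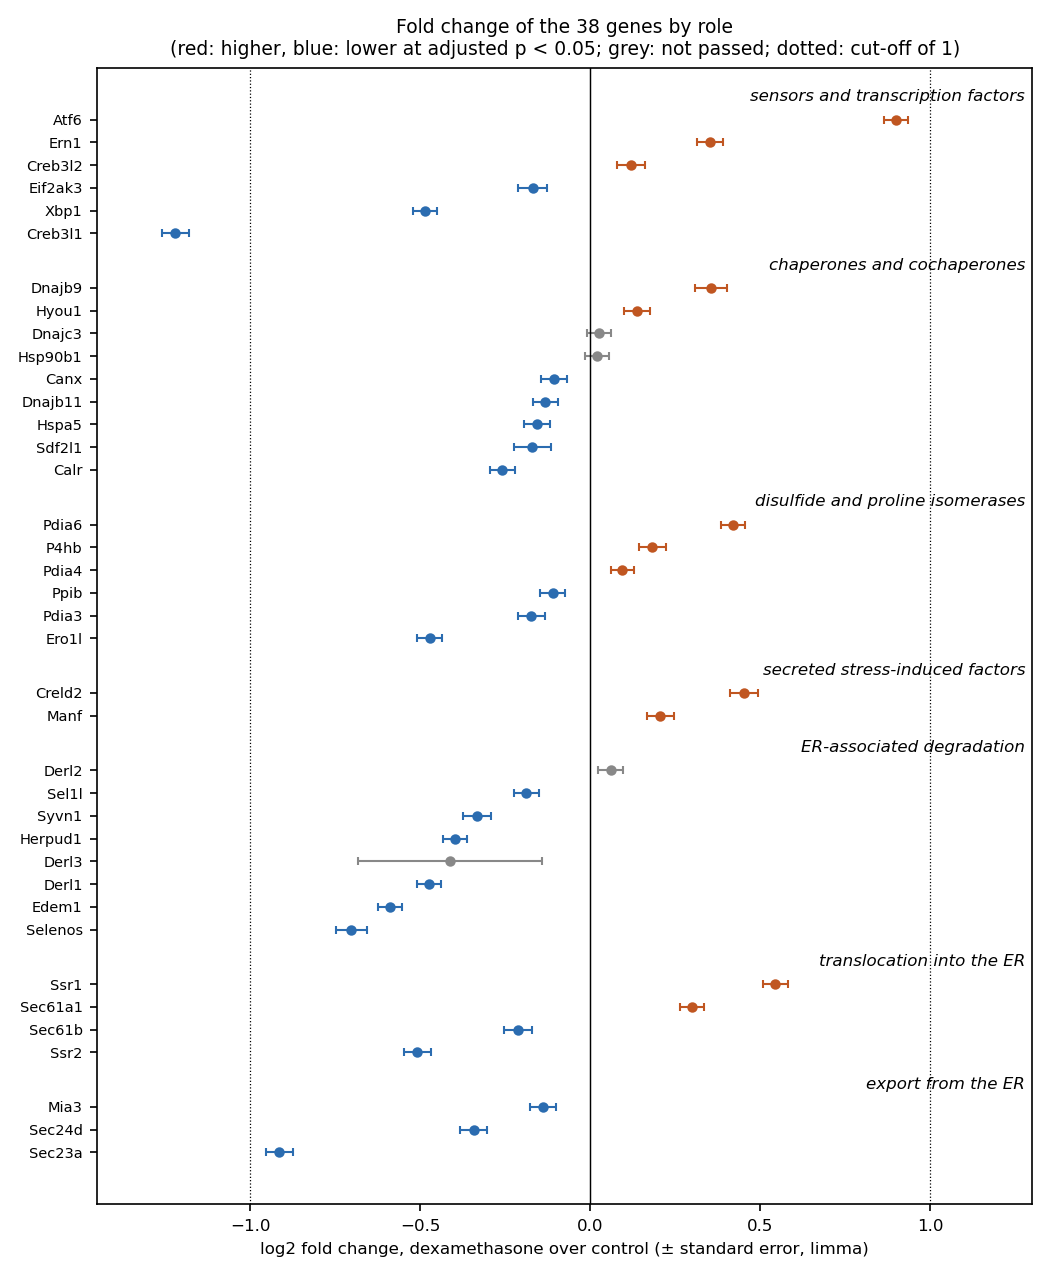
Log2 fold change of each of the 38 genes, dexamethasone over control, with its standard error (limma, 3 libraries per group), grouped by role, where red marks genes that rose, blue genes that fell and grey genes that did not pass. Creb3l1 at -1.22 is the only point beyond the dotted lines at a log2 fold change of 1 in size. No gene of degradation or export is red, where 37.2% of all genes tested rose.

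Known response elements were looked for in the promoters, since targets of the unfolded protein response are recognised by them. RefSeq promoter windows of 300 bases (250 before to 50 after the start, GRCm38.p6) were matched for 31 of the 38 genes, and Atf6, Creb3l1, Hyou1, Manf, Derl1, Sec61a1 and Ssr2 had no window. The ER stress response element (ERSE), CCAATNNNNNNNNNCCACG on either strand, was present in 9 of the 31 (29.0%) and in 37 of 27025 genes with a window (0.137%). The second form, ERSE-II, ATTGGNCCACG, was found for Dnajb11 and Herpud1 (6.45%, compared with 0.0444% of all genes). The core of the unfolded protein response element (UPRE), TGACGTGG, which Creb3l1 and Creb3l2 are known to bind as well, was found for Sec23a and Sec24d (6.45%, compared with 0.714%). No motif overlapped another. A glucocorticoid response palindrome, AGAACANNNTGTTC, was in 0 of the 31 windows and in 0.0518% of all genes' windows, which says only that these letters are not in the windows. The sequences below are examples from the chaperones, the secreted factors, the degradation genes and both coat genes, whose values follow; each runs 5′ to 3′ on the gene's strand, with the element in capitals.
Hspa5 (ERSE, chr2:34772005-34772063, + strand, 65 bases upstream of the start): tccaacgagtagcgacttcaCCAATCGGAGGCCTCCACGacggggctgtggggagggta
Hsp90b1 (ERSE, chr10:86705618-86705676, - strand, 212 bases upstream): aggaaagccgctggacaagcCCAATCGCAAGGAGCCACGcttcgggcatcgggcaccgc
Hsp90b1 (second ERSE, reverse orientation, chr10:86705513-86705571, - strand, 107 bases upstream): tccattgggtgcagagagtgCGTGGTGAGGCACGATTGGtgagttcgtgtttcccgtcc
Creld2 (ERSE, reverse orientation, chr15:88819500-88819558, + strand, 126 bases upstream): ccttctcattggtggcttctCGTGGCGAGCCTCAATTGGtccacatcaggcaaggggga
Syvn1 (ERSE, chr19:6046512-6046570, + strand, 44 bases upstream): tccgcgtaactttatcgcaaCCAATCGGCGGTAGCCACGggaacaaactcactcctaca
Herpud1 (ERSE-II, chr8:94386357-94386407, + strand, 52 bases upstream): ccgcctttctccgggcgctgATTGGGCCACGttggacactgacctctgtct
Sec24d (UPRE core, chr3:123267450-123267497, + strand, 26 bases upstream): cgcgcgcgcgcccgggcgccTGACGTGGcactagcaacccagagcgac
Sec23a (UPRE core, chr12:59011994-59012021, - strand, from base 7 after the start): tcctccccttTGACGTGGcagaggcggc

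The 9 genes with an ERSE did not move as a block. Their log2 fold changes ran from -0.41 for Derl3, which did not pass, to 0.45 for Creld2, with a median of -0.11, and the matched genes without an ERSE had a median of -0.17. Creld2 and Pdia6 rose, Hspa5, Calr, Canx and Syvn1 fell, and Hsp90b1, Dnajc3 and Derl3 did not pass.

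Of the 6 sensors and transcription factors, Atf6, Ern1 and Creb3l2 rose and Eif2ak3, Xbp1 and Creb3l1 fell. Creb3l1, also called OASIS, is released from the ER membrane by proteolysis and is known to activate the collagen gene Col1a1 in osteoblasts. With libraries given in the order of their replicate numbers, as throughout, it had 19761, 20606 and 20362 normalized counts in the controls and 9325, 8344 and 8427 with dexamethasone. Every dexamethasone library was thus below every control library, and the mean fell to 0.430 of the control mean (log2 fold change -1.22 ± 0.04 standard error, n = 3 per group, limma adjusted p = 5.3e-19). At the same total its log2 fold change was -1.33 and after quantile normalization -1.42. Atf6 encodes the sensor that travels to the Golgi and is cut there to free a transcription factor. It had 13762, 14251 and 13896 normalized counts in the controls and 27033, 25604 and 25595 with dexamethasone. Its mean rose 1.87-fold, without overlap between the groups (log2 fold change 0.90 ± 0.04 standard error, limma adjusted p = 2.6e-17), and its log2 fold change was 0.79 at the same total and 0.71 after quantile normalization.

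Ern1, the kinase and endoribonuclease that splices the Xbp1 mRNA, had 4763, 4578 and 4763 normalized counts in the controls and 6097, 6134 and 5776 with dexamethasone, a rise of 0.35 on the log2 scale. Xbp1, the transcription factor made from that mRNA, had 6845, 7034 and 6925 in the controls and 4908, 4918 and 5029 with dexamethasone (log2 fold change -0.49, limma adjusted p = 5.7e-12). The enzyme's transcript and its substrate's transcript therefore moved in opposite directions, and counts per gene do not separate spliced from unspliced Xbp1. Eif2ak3, the kinase of eIF2 alpha that slows translation, fell by 0.17 on the log2 scale, from 3212, 3271 and 3268 to 3052, 2874 and 2756 normalized counts. Creb3l2, the paralog of Creb3l1 known from cartilage, had 9043, 9711 and 9397 in the controls and 10935, 9844 and 9845 with dexamethasone. Dexamethasone replicate 1 was the highest of its group by a wide margin. The log2 fold change of Creb3l2 was 0.12 (limma adjusted p = 0.0116), but 0.0062 at the same total and -0.07 after quantile normalization. Creb3l2 did not pass without dexamethasone replicate 1 (0.07), without control replicate 1 (0.09) or without limma's variance trend.

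**Figure D2:**
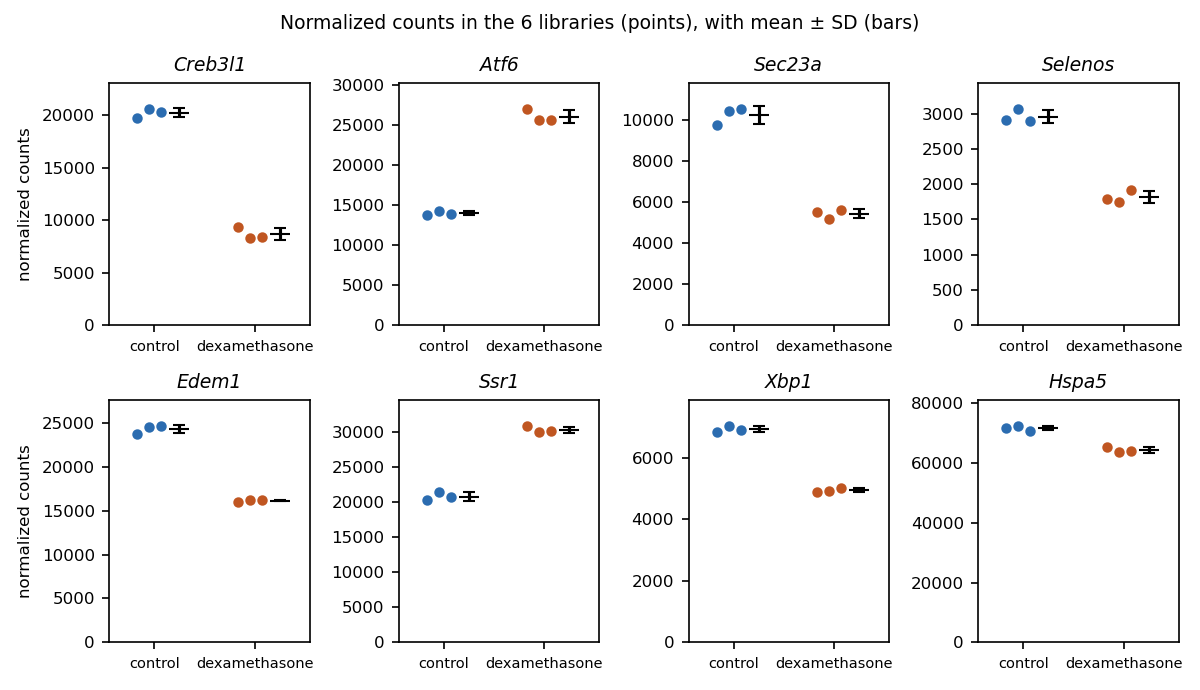
Normalized counts of 8 of the genes in each of the 3 control (blue) and 3 dexamethasone (red) libraries, on axes that start at 0, with the group mean and its SD as black bars. The groups do not overlap in any panel of these chosen genes, as they do not for 74.7% of all genes tested. The drop of Creb3l1 to 0.430 of the control mean stands beside that of Hspa5 to 0.898.

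Levels of different genes were compared as normalized counts per kilobase of exon, with lengths from the GENCODE M21 annotation. P4hb had the highest level of the 38 in the controls, 24751 ± 474 (SD, n = 3), and in the dexamethasone libraries, 28091 ± 609 (SD, n = 3). Pdia3, Hspa5, Calr and Canx followed in both groups, at 18370 ± 618, 16959 ± 185, 16932 ± 373 and 13528 ± 323 (SD, n = 3) per kilobase in the controls. Hspa5 and Calr were closer to each other in the controls than the SD of either. Creb3l1 had rank 7 of 38 in the controls, at 7777 ± 167 (SD, n = 3) per kilobase, and rank 12 with dexamethasone, at 3342 ± 209 (SD, n = 3). Even so, it kept the highest level per kilobase among the 6 sensors and transcription factors in both groups. Atf6 stood at 1513 ± 27.4 in the controls, below Xbp1 at 2135 ± 29.3 (SD, n = 3), and at 2825 ± 89.6 with dexamethasone, above Xbp1 at 1525 ± 20.7 (SD, n = 3). Derl3 was the lowest of the 38 in both groups, at 16.2 ± 3.52 and 11.99 ± 2.03 (SD, n = 3) per kilobase.

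Of the 9 chaperones and cochaperones, Dnajb9 and Hyou1 rose, Hspa5, Calr, Canx, Dnajb11 and Sdf2l1 fell, and Hsp90b1 and Dnajc3 did not pass. The median log2 fold change was -0.11 and the range -0.26 to 0.36, the narrowest of the roles with 3 or more genes. Hspa5, the chaperone BiP that also holds the sensors inactive, had 71933, 72372 and 70849 normalized counts in the controls and 65459, 63769 and 63909 with dexamethasone. All dexamethasone values lay below the control values, at 0.898 of the control mean (log2 fold change -0.16, limma adjusted p = 0.00087). Calr, a lectin chaperone for glycoproteins, had the lowest fold change of the role, with 47746, 49885 and 48660 in the controls and 40923, 40426 and 40900 with dexamethasone (-0.26, limma adjusted p = 8.2e-07). Dnajb9, a cochaperone of BiP known to restrain IRE1, had the highest, with 1866, 1918 and 1772 in the controls and 2254, 2375 and 2488 with dexamethasone (0.36, limma adjusted p = 2.8e-07).

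The ER form of Hsp90, Hsp90b1, carries both ERSE windows shown above and differed by 0.02 on the log2 scale (limma adjusted p = 0.62, standard error 0.04), and its groups overlapped. Genes on the same and the opposite strand cover 5.38% and 10.3% of its exon bases. It had 35447, 36490 and 35682 normalized counts in the controls and 37138, 36241 and 35783 with dexamethasone. Dnajc3, a cochaperone that is known to inhibit PERK, had 0.03 (limma adjusted p = 0.519). Both values turned negative under other scalings, to -0.09 for Hsp90b1 and -0.09 for Dnajc3 at the same total and to -0.07 and -0.16 after quantile normalization. Hyou1, which exchanges nucleotides on BiP, rose by 0.14 on the log2 scale, but had 0.02 at the same total and -0.08 after quantile normalization. It did not pass at the same total or without the variance trend. Canx, Dnajb11 and Sdf2l1 had log2 fold changes of -0.11, -0.13 and -0.17, and Canx, a membrane lectin chaperone, did not pass without control replicate 2 (-0.09).

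The 6 disulfide and proline isomerases split evenly, with Pdia4, Pdia6 and P4hb higher and Pdia3, Ero1l and Ppib lower. Pdia6, a disulfide isomerase that also acts on the sensors, had 18528, 19143 and 18592 normalized counts in the controls and 25661, 24612 and 25016 with dexamethasone. Its mean rose 1.34-fold without overlap (log2 fold change 0.42, limma adjusted p = 7.8e-11). Ero1l, the oxidase that recharges the disulfide isomerases, moved the other way. It had 11632, 11599 and 11934 in the controls and 8377, 8890 and 8094 with dexamethasone (log2 fold change -0.47, limma adjusted p = 3.3e-11). P4hb, the classical disulfide isomerase and a subunit of the collagen prolyl 4-hydroxylase, had 69636, 72294 and 70506 in the controls and 81981, 78519 and 80604 with dexamethasone, a rise of 0.18. Pdia3, which works with the lectin chaperones, fell by 0.17, and Ppib, a proline isomerase that acts on collagen, fell by 0.11. In the GENCODE M21 annotation Snx22 on the opposite strand covers 24.96% of the exon bases of Ppib, and Ppib did not pass without control replicate 3 (-0.10). Pdia4 rose by 0.09 (limma adjusted p = 0.015) but had -0.02 at the same total and -0.12 after quantile normalization. Pdia4 did not pass without control replicate 1, control replicate 3 or dexamethasone replicate 3, each with 0.09. Both secreted factors that ER stress is known to induce rose. Creld2 had 2471, 2580 and 2503 in the controls and 3542, 3351 and 3445 with dexamethasone (log2 fold change 0.45, limma adjusted p = 3.1e-10). Manf had 3029, 3032 and 3055 in the controls and 3571, 3527 and 3426 with dexamethasone (0.21, limma adjusted p = 3.7e-05), and 0.06 after quantile normalization, where it did not pass.

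No gene of ER-associated degradation rose. Herpud1, Sel1l, Syvn1, Edem1, Derl1 and Selenos fell and Derl2 and Derl3 did not pass, with a median log2 fold change of -0.40. Among all genes tested, 37.2% rose and 35.2% fell. In the further list of 22 degradation genes described below, 8 rose and 10 fell, with a median of -0.06. The summed normalized counts of the 8 genes were 71289, 74348 and 73201 in the controls and 56614, 55764 and 55846 with dexamethasone, 0.769 of the control mean. Selenos, a selenoprotein that helps to draw the p97 ATPase to the membrane, fell the most. It had 2918, 3069 and 2896 in the controls and 1795, 1746 and 1916 with dexamethasone (log2 fold change -0.70, limma adjusted p = 5.4e-13). Edem1, which directs misfolded glycoproteins to degradation, had 23703, 24544 and 24607 in the controls and 16034, 16245 and 16164 with dexamethasone (-0.59, limma adjusted p = 7.2e-14).

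Within the Syvn1 ubiquitin ligase complex, which carries out much of this degradation, Herpud1, Syvn1 and Sel1l fell. Herpud1, its ubiquitin-like scaffold, had 5803, 5975 and 5929 in the controls and 4479, 4487 and 4478 with dexamethasone (log2 fold change -0.40). Syvn1, the ligase HRD1, had 4427, 4783 and 4686 in the controls and 3805, 3670 and 3552 with dexamethasone (-0.33). Sel1l, the adaptor of Syvn1, had -0.19. Derl1, a membrane protein of the export channel, fell by 0.47, and its relative Derl2 had the highest value of the role, 0.06 (limma adjusted p = 0.149). Derl2 had 5386, 5584 and 5512 in the controls and 5568, 5948 and 5674 with dexamethasone, so its groups overlapped. Its value was -0.05 at the same total and -0.14 after quantile normalization, and without dexamethasone replicate 1 it passed with 0.08. Derl3 was near the limit of measurement, with 44, 29 and 32 reads in the controls and 29, 18 and 21 with dexamethasone, and its log2 fold change of -0.41 had a standard error of 0.27 (limma adjusted p = 0.175).

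The 4 genes of translocation into the ER divided within a single complex. Ssr1 and Ssr2 encode subunits of the translocon-associated protein complex, which sits beside the Sec61 channel. Ssr1 had 20285, 21456 and 20699 normalized counts in the controls and 30868, 30007 and 30222 with dexamethasone, a 1.46-fold rise (log2 fold change 0.55, limma adjusted p = 7.3e-13). Ssr2 had 6679, 6862 and 6759 in the controls and 4663, 4574 and 5046 with dexamethasone, 0.704 of the control mean (-0.51, limma adjusted p = 2.1e-11). A gene on the opposite strand covers 12.8% of the exon bases of Ssr2, and the strand setting of the count is not given in the sources used here. The channel's alpha subunit gene Sec61a1 rose by 0.30 and its beta subunit gene Sec61b fell by 0.21, the latter with 89.9% of its 75-base positions found in no other gene.

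The 3 genes of export from the ER fell, where 35.2% of all genes tested fell. In the further list of 21 export and retrieval genes described below, 7 rose and 4 fell, with a median of 0.02. Sec23a encodes the inner layer of the COPII coat and is known to be needed for collagen secretion and skeletal development. It had 9743, 10416 and 10522 normalized counts in the controls and 5486, 5191 and 5596 with dexamethasone. The mean fell to 0.530 of the control mean, without overlap (log2 fold change -0.91 ± 0.04 standard error, limma adjusted p = 1.3e-16). At the same total its log2 fold change was -1.03 and after quantile normalization -1.09, past the cut-off of 1. Gm17529 on the opposite strand covers 8.91% of its exon bases. Sec24d, a cargo-binding coat subunit whose promoter window also holds the UPRE core, had 14204, 15245 and 15089 in the controls and 12334, 11396 and 11403 with dexamethasone (-0.34, limma adjusted p = 2.3e-08). Mia3, which loads procollagen into COPII carriers, had 20634, 21659 and 21646 in the controls and 20450, 18666 and 18995 with dexamethasone (-0.14, limma adjusted p = 0.0025). It did not pass when limma was run without the variance trend.

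Ratios of related genes within a library do not depend on a scaling factor applied to the whole library, though quantile normalization can change them. The 8 pairs were formed after their values had been seen, so they are given without a test. The ratio of Creb3l1 to Creb3l2 normalized counts was 2.19, 2.12 and 2.17 in the controls and 0.853, 0.848 and 0.856 with dexamethasone. That of Atf6 to its paralog Atf6b was 1.95, 1.89 and 1.88 in the controls and 6.43, 6.96 and 6.92 with dexamethasone. Atf6b, a relative of Atf6 with weaker activity, fell by 0.92 on the log2 scale. The ratio of Sec23a to Sec23b, the other inner coat gene, was 1.76, 1.82 and 1.92 in the controls and 0.851, 0.869 and 0.912 with dexamethasone. That of Sec24d to Sec24b was 2.17, 2.28 and 2.31 in the controls and 1.13, 1.10 and 1.09 with dexamethasone. Both coat ratios were lower in every dexamethasone library. The ratio of Sec24d to Sec24b changed by -1.03 on the log2 scale, against -0.34 for Sec24d alone, so Sec24b was higher with dexamethasone. For Sec23a to Sec23b the change was -1.06, against -0.91 for Sec23a alone. The ratio of Ssr1 to Ssr2 was 3.04, 3.13 and 3.06 in the controls and 6.62, 6.56 and 5.99 with dexamethasone. The ratios of Derl1 to Derl2, Ero1l to Ero1lb and Edem1 to Edem2 changed by -0.53, -0.68 and -0.39 on the log2 scale. None of the 8 ratios overlapped between the groups, but the pairs were chosen with values known, so nothing follows from that count. Of single genes averaging 1000 normalized counts or more, 86% did not overlap either.

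**Figure D3:**
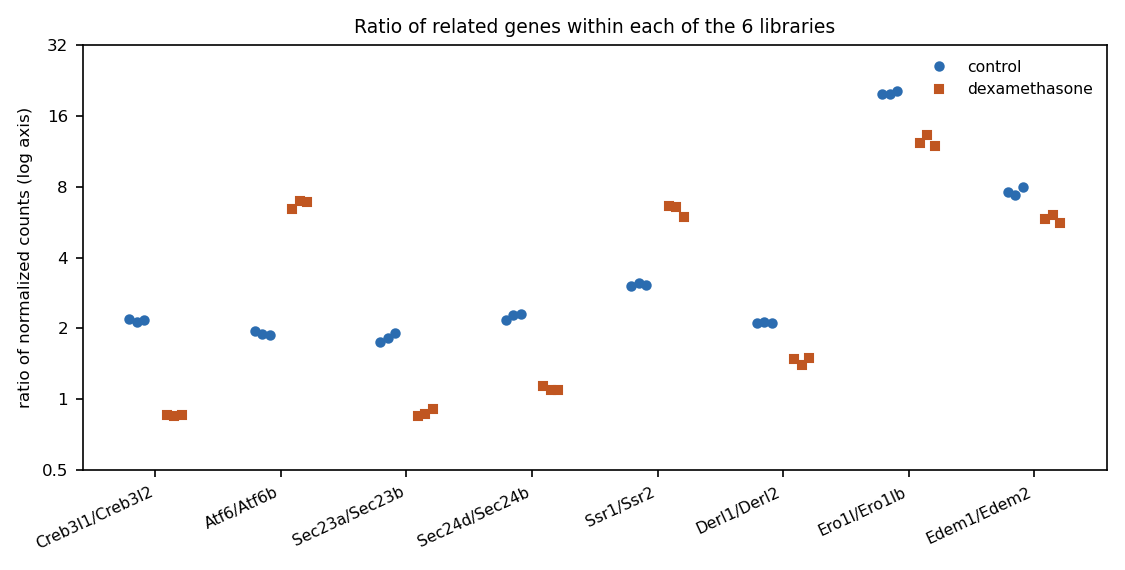
Ratio of the normalized counts of 8 pairs of related genes within each of the 3 control (blue circles) and 3 dexamethasone (red squares) libraries, on a log axis. The pairs were chosen after their values were seen, and the groups lie apart in each. The pair with the widest gap, Atf6 over Atf6b, moves from between 1.88 and 1.95 in the controls to between 6.43 and 6.96 with dexamethasone.

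Summed over the 38 genes, normalized counts were 662867, 688698 and 674779 in the controls and 661960, 641304 and 647471 with dexamethasone, 0.963 of the control mean. As a share of all reads the sum was 0.867% to 0.870% in the controls and 0.767% to 0.779% with dexamethasone. By role, summed normalized counts of the chaperones stood at 0.928 of the control mean, secreted factors at 1.25, translocation at 1.21 and export at 0.787. For the isomerases the sum was 1.04 of the control mean, but as a share of reads it was lower with dexamethasone, at 0.222% to 0.225% against 0.233%. The sensors' sum, at 1.01, overlapped between the groups, whereas their share of reads was 0.0748% to 0.0755% in the controls and 0.0680% to 0.0715% with dexamethasone.

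A wider set of 128 genes of the same processes, in 7 lists, had 124 genes tested. Of these 37 rose, 50 fell and 37 did not pass, with a median log2 fold change of -0.04. The shares to set beside the counts of each list are those of all genes tested, 37.2% higher and 35.2% lower. Of the further translocon and signal peptide genes, 6 of 21 rose and 8 fell, with Ssr3 at -0.10, Sec63 at 0.32 and Tram1 at 0.47. All 3 passed, but Ssr3 did not without control replicate 2 (-0.08) or control replicate 3 (-0.10). Of the oligosaccharyltransferase genes, which attach N-glycans, 1 of 11 rose and 6 fell, with Rpn1 at 0.41, Rpn2 at -0.21 and Stt3a at 0.01 (not passed). Of the further chaperones, 6 of 17 rose and 7 fell. Serpinh1, the collagen-specific chaperone, had 87958, 91156 and 90871 normalized counts in the controls and 54350, 51800 and 52587 with dexamethasone, a difference of -0.77 on the log2 scale (limma adjusted p = 6.6e-15). It fell further than any of the 9 chaperones among the 38 genes, while Uggt1, the folding sensor for glycoproteins, had -0.17 and Ganab, which trims glucose from N-glycans, had -0.03 (not passed). Of the further isomerases, 9 of 20 rose and 7 fell, and Fkbp11, a proline isomerase, was called higher. Its normalized counts were 829, 759 and 746 in the controls and 2374, 2166 and 2423 with dexamethasone (log2 fold change 1.58, limma adjusted p = 2.2e-18). Fkbp9, Qsox1 and Txndc5, the most abundant of that list by counts, had -0.71, 0.25 and -0.31, all passed.

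Of the further degradation genes 8 of 22 rose and 10 fell, with Os9, a lectin of the Syvn1 complex, at -0.77, Ube2j1 at 0.10 and Vcp, the p97 ATPase, at -0.02 (not passed). The further export and retrieval genes had 7 of 21 higher and 4 lower, with Sec31a, of the outer COPII coat, at -0.25 and Sar1a, the GTPase that starts coat assembly, at 0.20, both passed, and Surf4 at -0.07 (not passed). Ube2j1 did not pass without control replicate 1 (0.09) or dexamethasone replicate 3 (0.09). It had -0.01 at the same total and -0.12 after quantile normalization, and Sar1a had -0.02 after the latter. Surf4 passed and was lower at the same total (-0.18), after quantile normalization (-0.19), with edgeR (-0.09), with DESeq2 (-0.08) and without dexamethasone replicate 1 (-0.08). Of the further sensors and regulators, 0 of 12 rose and 8 fell. Crebrf, a regulator of Creb3 proteins, was called lower (log2 fold change -1.10, limma adjusted p = 4.0e-18), with 4015, 4145 and 4146 normalized counts in the controls and 1915, 1938 and 1879 with dexamethasone. Rtcb, the ligase that joins the cut Xbp1 mRNA, had -0.21 and passed, and Tmbim6 at -0.05 and Mbtps1, the protease that cuts Atf6, at -0.01 did not pass. Under other scalings several of these genes did pass, all lower. At the same total Tmbim6 had -0.16, Mbtps1 -0.12, Ganab -0.14 and Vcp -0.13, and after quantile normalization -0.17, -0.22, -0.15 and -0.10, and Tmbim6 also passed with edgeR (-0.07).

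**Figure D4:**
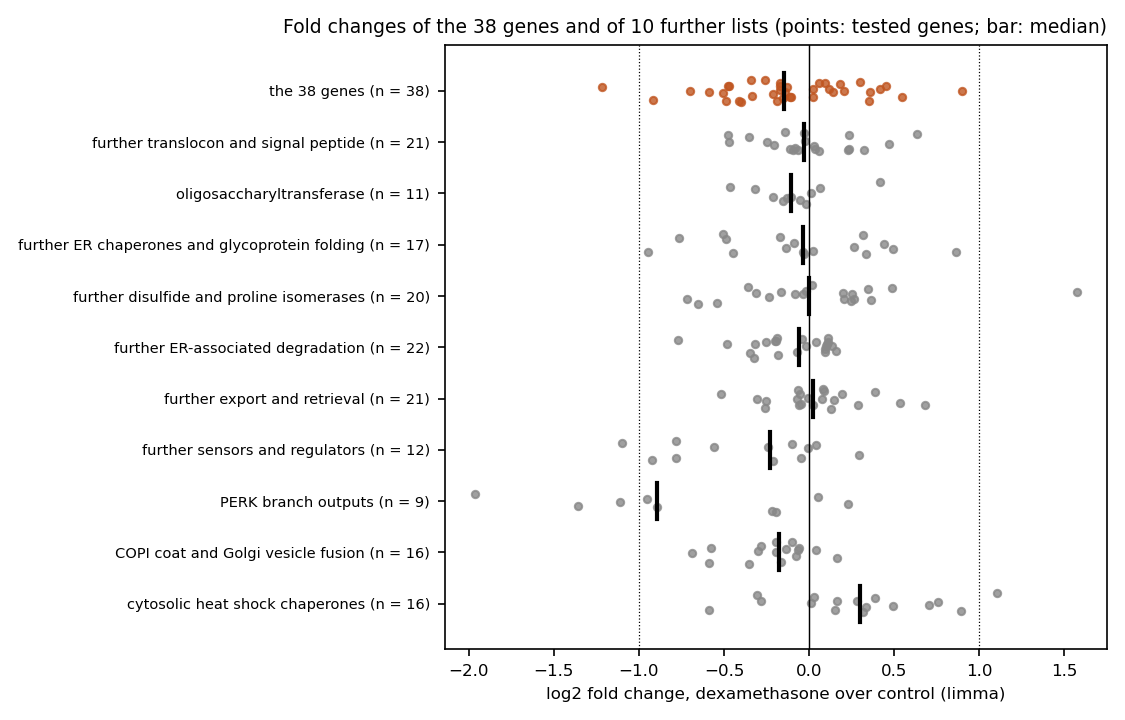
Log2 fold change (dexamethasone over control, limma) of the 38 genes (red) and of the tested genes of 10 further lists (grey), 1 point per gene with the list's median as a bar and dotted lines at 1 in size. The 7 lists of ER genes have medians from -0.23 to 0.02 and the 38 genes one of -0.15. The PERK branch outputs have a median of -0.89 and the cytosolic heat shock chaperones, with mitochondrial genes among them, one of 0.30.

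Genes of the PERK branch were mostly lower. Of the 9 listed, 7 fell and 1 rose, where 35.2% of all genes tested fell and 37.2% rose. Atf3, Ddit3 and Ppp1r15a were called lower, as were 10.6% of all genes tested. The list median was -0.89. Atf4, the transcription factor translated when PERK is active, had 22836, 22539 and 22485 normalized counts in the controls and 26823, 26059 and 26543 with dexamethasone, and rose by 0.23. Its target Ddit3 (CHOP), known for its part in cell death, had 3836, 3603 and 3652 in the controls and 1429, 1478 and 1423 with dexamethasone (log2 fold change -1.36, limma adjusted p = 2.5e-19). Atf3 had 1671, 1741 and 1662 in the controls and 429, 522 and 359 with dexamethasone (-1.97, limma adjusted p = 1.9e-16). Ppp1r15a (GADD34), which brings phosphatase to eIF2 alpha, had 3590, 3381 and 3414 in the controls and 1609, 1594 and 1602 with dexamethasone (-1.11). Its constitutive relative Ppp1r15b had 0.05 (not passed), -0.06 at the same total and -0.16 after quantile normalization, and Atf5 fell by 0.19. The genes of the COPI coat and Golgi vesicle fusion, which act after export, had 12 of 16 lower and 1 higher (median -0.18), with Copa at -0.13, Arf1 at 0.17 and Copg1 at 0.04 (not passed). At the same total Arf1 had 0.05 and did not pass. In contrast to the ER chaperones, 11 of 16 cytosolic and mitochondrial heat shock genes rose and 2 fell, with a median of 0.30. Of the 8739 genes averaging 1000 normalized counts or more, 4385 rose and 3008 fell, with a median of 0.09. Hsp90ab1, Hspa8 and Hspd1 rose by 0.33, 0.39 and 0.70, and Cryab, a small heat shock protein, was called higher at 1.11.

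Depth was 72596611 to 89910728 reads per library. Of 12 osteoblast markers all were tested. Their sum was 2281061 to 2419396 normalized counts in the controls and 2118184 to 2258147 with dexamethasone. The collagens Col1a1 and Col1a2 and Sparc made up most of it in the controls, and Spp1 the largest part with dexamethasone. Spp1 and Dmp1 were called higher and Phex rose, and the other 9 were called lower, among them Bglap2 (-3.33), Alpl (-2.45), Col1a1 (-1.88) and Runx2 (-1.75 on the log2 scale). Osteocalcin (Bglap), the protein the cells were sorted by, had few reads, 98.2, 102 and 122 normalized counts in the controls and 9.54, 11.99 and 15.1 with dexamethasone, and shares sequence with Bglap2. Plasma cells are rich in the same folding genes. Of 13 plasma and B cell markers 11 were in the table and 3 were tested, with a sum of 10188 to 11032 in the controls and 21566 to 23233 with dexamethasone, almost all of it Sdc1. Without Sdc1 it was 27.4 to 35.8 and 78.5 to 90.6, mostly Pou2af1 in the latter, and Cd79b and Igkc had at most 3 reads in every library, the limit that a count of 0 allows. The 8 blood cell markers summed to 103 to 138 in the controls and 781 to 837 with dexamethasone, with Hba-a1 at no more than 3 reads. The rise was that of Cd53 and Itgb2 (4.11 and 3.20 on the log2 scale), while Laptm5 and Coro1a were called lower (-1.49 and -1.77) and Ptprc had at most 5 reads. The sum of 7 osteoclast markers was 12899 to 13511 in the controls and 8224 to 8639 with dexamethasone, mostly Ctsk. Against that sum, Atp6v0d2 was called higher (2.56 on the log2 scale), with 7, 2 and 8 reads in the controls and 25, 39 and 28 with dexamethasone. Acp5 had 0 reads in every control and 7, 26 and 17 with dexamethasone, and Ocstamp had 0, 6 and 1 and then 20, 6 and 14. Mmp9 was called lower (-1.16), with at most 25 reads in a library, and Calcr had at most 4 reads. The sum of 9 endothelial markers was 4685 to 4832 in the controls and 5654 to 6209 with dexamethasone, mostly Flt1, with Cdh5 and Tie1 at no more than 3 reads. Esam was called higher (1.20 on the log2 scale), and Pecam1, Kdr and Flt1 rose by 0.74, 0.25 and 0.30. Tek and Egfl7 did not pass. Esam and Pecam1 had few reads, at most 34 and 31 in a library. The 8 chondrocyte markers summed to 6784 to 7237 and 22638 to 25462, mostly Sox9 and Col2a1, with Col9a1 at no more than 3 reads and Acan near 0. Comp was called lower (-1.23) and Col11a2 fell by 0.67 on the log2 scale. These marker sums differed between the groups, and their part in the results above was not tested.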

How the data were processed

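Libraries were made with a stranded mRNA kit and sequenced by the authors, who aligned and counted reads per gene with STAR 2.7.10a on GRCm39 and scaled the counts with DESeq2 1.36.0, per the labels and methods. The annotation release and strand setting are not given in the sources used here. The deposited values are these normalized counts, a count-based signal; 100% of them were whole multiples of 1 read (within 0.05 read), so reads were recovered. No column was left out. Of 29616 identifiers, 28087 had a symbol in GENCODE M21.

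Normalized counts were compared as log2(value + 1) with limma 3.58.1 (R 4.3.3, eBayes with trend) in genes with a mean of at least 10, with Benjamini-Hochberg adjustment over all of them. Fold changes are on that scale, which understates those of genes with few reads. "Rose" and "fell" mean an adjusted p under 0.05, and "called" also a change of 1 or more on the log2 scale, the study's cut-offs. The model was checked on simulated data with few changed genes and large changes. That check does not cover small changes or the choice of scaling. The 38 genes, their roles and the further lists were chosen with earlier results of these data known. All 38 were described, with values per library for the called gene, for the extremes of each role and for others chosen after their values were seen. From each further list the 3 most abundant genes by counts and up to 3 called genes were named. On the recovered reads, DESeq2 1.42.0 and edgeR 4.0.16 were run as alternatives, as were other scalings, filters and pseudocounts, a replicate block and omission of each library. Limits of 3 reads cover counting error only. Protein sequences, Tusc3, Tnfrsf17, Ms4a1, Dcstamp and Emcn were not analysed here.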

Additional observations from a re-analysis of the deposited data

How the results depend on the processing

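Over 16 alternatives, 607 values were computed for the 38 genes, of which 12 changed sign (6 genes). Another 15 kept their sign but no longer passed (7 genes). Scaling mattered most. Rescaling to the same total moved the median of the 38 genes from -0.15 to -0.26 and quantile normalization to -0.27, and under each of these 2 genes were called lower in place of 1 (Sec23a beside Creb3l1); edgeR on recovered reads gave a median of -0.17. The median of all genes tested moved as well, from 0.00071 to -0.11 at the same total and -0.08 after quantile normalization. For the 38 genes, omitting 1 library at a time gave medians from -0.17 to -0.12. At the same total the sign changed for Hsp90b1 (-0.0936), Dnajc3 (-0.0886), Pdia4 (-0.0194), Derl2 (-0.0538), Stt3a (-0.10), Ube2j1 (-0.0112), Ppp1r15b (-0.0609), Copg1 (-0.0707), the median of translocation (-0.0706) and that of further export and retrieval (-0.0919). After quantile normalization it changed for Creb3l2 (-0.0700), Hsp90b1 (-0.0675), Hyou1 (-0.0772), Dnajc3 (-0.16), Pdia4 (-0.12), Derl2 (-0.14), Stt3a (-0.16), Ube2j1 (-0.12), Sar1a (-0.0193), Ppp1r15b (-0.16), Copg1 (-0.0686), translocation (-0.14) and further export (-0.19). With edgeR it changed for Hsp90b1 (-0.00548), Dnajc3 (-0.00105), Stt3a (-0.0164) and further export (-0.00409). Omitting 1 library at a time gave -0.069 to 0.00565 for the median of the sensors, -0.0209 to 0.0257 for that of the further isomerases, -0.0133 to 0.0325 for Stt3a and -0.0436 to 0.0120 for Mbtps1. The cause of these changes was not tested beyond the construction of each scaling. Libraries with the same replicate number did not deviate together over the genes tested (correlations of -0.0999, -0.105 and -0.0199). With 3 libraries per group, these values alone cannot exclude that the numbers pair them. With the replicate block 11 of the 38 genes rose and 21 fell, and Canx and Pdia4 no longer passed. Over all genes 3894 were called, 5326 with no filter and 2170 with a mean of at least 100, where fewer genes were tested. Among the 38 genes, depth limited Derl3, with 18 to 44 reads per library.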

Other observations

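The levels of several bone matrix transcripts were set beside those of the 38 genes. Col1a1, Col1a2 and Sparc together had 3.35, 3.39 and 3.49 times the summed normalized counts of the 38 genes in control replicates 1, 2 and 3, and 1.44, 1.34 and 1.32 times in dexamethasone replicates 1, 2 and 3. With Spp1 (osteopontin) added, the ratio was 3.40, 3.44 and 3.55 in the controls and 3.39, 3.28 and 3.33 with dexamethasone. Spp1 itself had 32469, 34314 and 34003 normalized counts in the controls and 1291250, 1246067 and 1301705 with dexamethasone. These sums were chosen after their values were seen and are given without a test.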
